A study of Homo sapiens with 3 samples.

Results

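Interferon-stimulated genes and the genes of MHC class I antigen presentation were followed in 3 RNA-seq libraries of Caco-2 cells, an established line from a human colorectal carcinoma whose cells resemble absorptive enterocytes. The set holds 49 genes of the 60664 gene identifiers counted. Its members are the interferon-responsive IRF, STAT, IFI, IFIT, IFITM, OAS and GBP genes, the ISG15, TRIM and PARP genes of the same response, and the class I genes with their transporter and activator, matched by gene symbol. All cells carried the wild-type genotype of the line, and each group has 1 library. The control cells had neither agent. The DSS cells had 3% dextran sulfate sodium, a sulfated polysaccharide that injures the gut epithelium of rodents, for 8 h. The third group, called DSS with polydatin here, had 30 µM polydatin, a glucoside of resveratrol, for 2 h and then together with 3% DSS for 8 h. Polydatin without DSS was not analysed here.

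Interferons signal through JAK kinases to STAT transcription factors, which with IRF9 bind the interferon-stimulated response element (ISRE) and as STAT dimers bind the gamma-activated site (GAS). The genes they switch on include RNA sensors, antiviral effectors, guanylate-binding proteins (GBPs) and the class I machinery, and some of them also answer to NF-kB, to IRF1 or to IRF3 without any interferon. In the intestinal epithelium this response guards against virus, and class I molecules show peptides from inside the cell to CD8 T cells, with NLRC5 as the activator of class I transcription.

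The libraries held 18695613 counts (control), 18825914 (DSS) and 16667622 (DSS with polydatin). Counts were scaled by TMM, a trimmed-mean normalization, to CPM (counts relative to each library's scaled total), and a gene was measured when it reached 1 CPM, about 18 counts, in at least 1 library. That held for 14792 genes and for 39 of the 49 members. A gene was called higher or lower when its ratio was at least 1.5-fold and the exact 95% Clopper-Pearson interval, given in parentheses throughout, excluded 1. There is no replicate of any group, so every ratio compares libraries, not conditions, and no test of the treatments can be made. The intervals cover counting error only. Epithelial markers summed to 7643, 9251 and 7613 CPM in control, DSS and DSS with polydatin. Of 9 measured, 1 was lower in DSS with polydatin than in control (CDX2, 0.533, 11.1% beside 12.4% of all measured genes). LGALS4, with 4, 10 and 25 counts, was the 1 higher (11.1% beside 16% of all). KRT20 was not measured. Leukocyte markers summed to 6.88, 12.3 and 12.2 CPM in control, DSS and DSS with polydatin, with PTPRC and MS4A1 at 0 in every library. Fibroblast and endothelial markers summed to 74.5, 62.3 and 65.5 CPM. The leukocyte sum was higher in both treated libraries, in the same direction as most members, and its part in the results was not tested. In whole cultures, fewer cells of a type and less RNA per cell cannot be told apart.

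The members held a small share of each library, 16846 counts in control (0.0901%), 19878 with DSS (0.106%) and 21577 in DSS with polydatin (0.129%). Between DSS and control, 8 of the 39 measured members were higher (20.5%) and 1 was lower (2.56%). Over all measured genes the shares were 9.45% higher and 5.81% lower. The 8 were IRF2, IFIH1, OAS1, GBP2, GBP3, NLRC5, TAP1 and HLA-C, and the 1 was USP18. Between DSS with polydatin and DSS, 6 members were higher (15.4%; 5.39% of all measured genes) and 0 were lower (2.6% of all). They were IRF7, ISG20, GBP2, GBP3, HERC6 and NLRC5. Between DSS with polydatin and control, 17 members were higher (43.6%; 16% of all measured genes) and 0 were lower (12.4% of all). Of the called members, NLRC5 and IRF9 counted as measured only through the treated libraries. The measured members had median log2 ratios of 0.21, 0.38 and 0.54 in these comparisons, where all measured genes had -0.01, -0.01 and -0.02. The split of calls depends on the scaling. With scaling by total counts the members gave 8 higher and 0 lower, 9 higher and 0 lower, and 20 higher and 0 lower in the same order. All genes then gave 9.93% higher and 5.34% lower, 7.61% and 1.57%, and 19.9% and 8.33%, with their median moved up by 0.11 (log2) in DSS with polydatin against control. The comparisons share libraries in pairs, so they are given side by side and are not separate evidence.

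Of the 39, 13 had a ratio below 1 in DSS against control, 7 in DSS with polydatin against DSS and 6 in DSS with polydatin against control. Among the 20 members that reached 10 CPM in a library, 5 were higher in DSS than in control (7.43% of all genes at that level), and 7 were higher in DSS with polydatin than in control (12.6%). In DSS with polydatin against DSS, only GBP2 of these 20 was higher (2.35%), so the other 5 calls of that comparison were in members below 10 CPM.

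**Figure D1:**
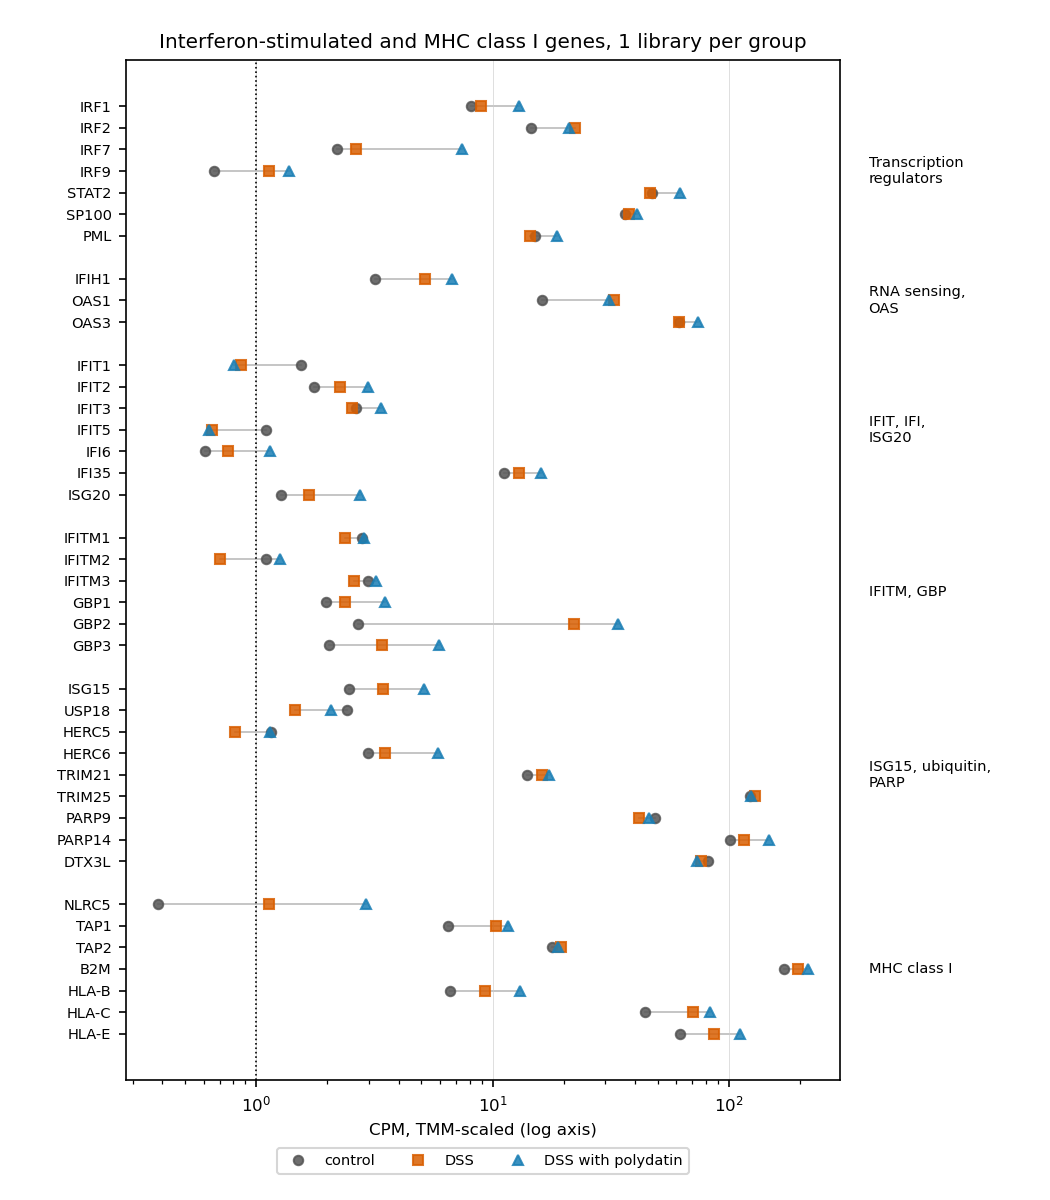
TMM-scaled level in CPM (log axis) of the 39 measured members in each library, with circles for control, squares for DSS and triangles for DSS with polydatin, grouped by role; the dotted line marks 1 CPM. GBP2 spans the widest range, from 2.70 to 33.9 CPM, while TRIM25 stayed between 123 and 129 CPM.

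Promoter sequences are shown for members whose control elements can be seen beside their values. RefSeq (GRCh38.p14) gave promoters for 36 of the 49 members. DHX58, OASL, TRIM22, IRF7, IFIT2, NLRC5, OAS2, IFITM2, PML, IRF2, HLA-E, USP18 and GBP2 were not matched. The 250 bases before each start were searched on both strands for an ISRE core (GAAANNGAAA or its complement TTTCNNTTTC), for the GAS core TTCNNNGAA and for the NF-kB consensus. The ISRE core lay in 26 of 44 member promoters (59.1%) and in 3.02% of all 35116 promoters. The GAS core lay in 12 of the 44 (27.3%; 6.57% of all), and the NF-kB consensus in 11 (25%; 9.96% of all). The members were listed as interferon-responsive genes, so the ISRE share describes the list.

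Promoters of members with and without a call were then set side by side. The ISRE core lay in 5 of the 13 promoters of members called in any comparison (38.5%), those of GBP1, IFIH1, ISG15, ISG20 and TAP1. It lay in 13 of 21 promoters of measured members without a call (61.9%) and in 8 of 10 promoters of members that were not measured (80%). A gene can have more than 1 promoter, and these 3 sets hold 12, 18 and 6 genes in the same order. The 12 are part of the 19 called members. The called GBP2, HLA-E, IFIT2, IRF2, IRF7, NLRC5 and USP18 had no matched promoter, so the shares of called members leave them out. The NF-kB consensus lay in 5 of the 13 (38.5%), those of HLA-B, HLA-C, IFIH1, IRF1 and TAP1, in 3 of the 21 (14.3%) and in 3 of the 10 that were not measured (30%). The GAS core also lay in 5 of the 13, those of GBP3, IRF1, IRF9, OAS1 and TAP1, in 3 of the 21 and in 4 of the 10 (40%). By gene, the NF-kB consensus lay in 2 of the 6 matched members that were not measured and the GAS core in 3 of the 6, so these shares rest on few genes. These are matches of letters, described without a test, and a match is not a bound site.

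The stretches that follow hold the ISRE cores of called effector genes and read 5′ to 3′ on the strand of the gene, with the motifs in capitals. They lie at chr1:1013359-1013424 on the plus strand (ISG15), chr15:88638922-88638981 on the plus strand (ISG20), chr2:162318685-162318868 on the minus strand (IFIH1) and chr1:89065301-89065360 on the minus strand (GBP1). ISG15 has overlapping cores in a single run. IFIH1 has cores at both ends with an NF-kB match between them.
ISG15: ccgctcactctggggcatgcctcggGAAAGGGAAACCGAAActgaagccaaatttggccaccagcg
ISG20: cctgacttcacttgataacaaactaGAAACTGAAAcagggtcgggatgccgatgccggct
IFIH1: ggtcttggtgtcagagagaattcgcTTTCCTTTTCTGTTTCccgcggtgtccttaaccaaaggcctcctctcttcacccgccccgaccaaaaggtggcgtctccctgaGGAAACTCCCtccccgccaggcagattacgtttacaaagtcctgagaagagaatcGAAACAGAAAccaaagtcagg
GBP1: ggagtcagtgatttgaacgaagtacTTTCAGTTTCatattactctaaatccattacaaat

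The transcription regulators came first in the order of roles, with 7 of 7 listed members measured. IRF7, the factor that amplifies type I interferon transcription, had 40 counts in control, 49 with DSS and 130 in DSS with polydatin (2.20, 2.64 and 7.46 CPM). Control and DSS were close and DSS with polydatin stood above both. The ratio was 1.20 (0.775 to 1.87) for DSS against control, 2.82 (2.01 to 4.00) for DSS with polydatin against DSS and 3.38 (2.36 to 4.95) for DSS with polydatin against control. Among the 6 members higher in DSS with polydatin than in DSS this was the highest ratio.

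IRF1, an activator that binds ISRE-like sites and drives class I and GBP genes, had 147, 166 and 225 counts in control, DSS and DSS with polydatin (8.10, 8.96 and 12.9 CPM). It was 1.59-fold (1.29 to 1.98) higher in DSS with polydatin than in control and 1.44-fold (1.17 to 1.77) above DSS, the latter short of the rule. IRF2, which competes with IRF1 for the same sites, had 263, 414 and 369 counts. It was the only regulator of the 7 called between DSS and control, at 1.54-fold (1.32 to 1.81) higher. DSS with polydatin stood at 0.947 (0.821 to 1.09) of DSS.

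IRF9, the DNA-binding subunit of the ISGF3 complex, was at the limit of detection with 12, 21 and 24 counts. It counted as measured only through the treated libraries. Its call in DSS with polydatin against control, 2.08 (1.00 to 4.57), was lost with DESeq2 size factors, with thinned libraries and with the GC and length trend removed, and 48.4% of its exonic bases overlap another gene (AL136295.5). STAT2, its partner, was well counted, with 862, 856 and 1080 counts and a ratio of 1.34 (1.22 to 1.47) for DSS with polydatin against DSS. That is short of 1.5-fold. The nuclear-body genes SP100 and PML were not called in any comparison.

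Of 6 RNA sensing and OAS members, 3 were measured and 2 were higher in DSS than in control (66.7% beside 9.45% of all measured genes). IFIH1, which encodes the double-stranded RNA sensor MDA5 and whose promoter is shown above, had 58, 96 and 118 counts (3.19, 5.18 and 6.77 CPM). Control was the lowest library, at 1.62 (1.16 to 2.29) for DSS against control and 2.12 (1.53 to 2.95) for DSS with polydatin against control. OAS1, a synthetase whose product activates RNase L, had 295, 605 and 543 counts (16.2, 32.7 and 31.1 CPM). Both treated libraries stood at about the same level above control, with ratios of 2.01 (1.75 to 2.32) and 1.92 (1.66 to 2.22), and 0.954 (0.848 to 1.07) between them. OAS3 was not called, with 61.8, 61.6 and 74.2 CPM. OAS2, OASL and DHX58 were not measured.

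The IFIT and IFI genes, classical targets of type I interferon, were low. Of 10 listed, 7 were measured and none was called between DSS and control. Over all measured genes 9.45% were higher and 5.81% lower there. IFIT2, which binds viral RNA with its relatives, had 32, 42 and 52 counts, 1.69-fold (1.07 to 2.72) higher in DSS with polydatin than in control. ISG20, an exonuclease that degrades viral RNA, had 23, 31 and 48 counts. It was higher in DSS with polydatin by 1.65-fold (1.03 to 2.67) over DSS and 2.17-fold (1.30 to 3.74) over control. The first of these calls was lost with libraries thinned to equal totals.

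The remaining IFIT and IFI genes gave no call. IFIT1 had 28, 16 and 14 counts and IFIT5 had 20, 12 and 11, lower in both treated libraries than in control. IFIT3 had 48, 47 and 59 counts, IFI6 had 11, 14 and 20, and IFI35 had 203, 240 and 280. IFI44 and IFI44L had 0 counts in all 3 libraries, where 3 counts correspond to 0.165, 0.162 and 0.172 CPM. IFI27 was not measured.

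Of 8 membrane restriction factors and GBPs, 6 were measured, and the called ones were the 3 GBPs. In DSS against control 2 of the 6 were higher (33.3% beside 9.45% of all measured genes). In DSS with polydatin against DSS 2 were higher (33.3% beside 5.39%), and against control 3 were (50% beside 16%). GBPs are interferon-induced GTPases that coat intracellular pathogens and prime inflammasomes. GBP2 (chromosome 1, 89106132 to 89150456) had 49 counts in control, 409 with DSS and 591 in DSS with polydatin (2.70, 22.1 and 33.9 CPM). Control stood far below both treated libraries, by 8.18-fold (6.07 to 11.2) against DSS and 12.6-fold (9.38 to 17.2) against DSS with polydatin. The treated libraries differed by 1.54-fold (1.35 to 1.75). Per kilobase of exon, GBP2 went from 0.430 CPM in control to 3.52 in DSS and 5.40 in DSS with polydatin. It had the largest ratio to control of the measured members in both treated libraries, and 9.89% of its exonic bases overlap GBP7.

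GBP3 had 37, 63 and 104 counts (2.04, 3.40 and 5.96 CPM) and was called in each comparison. The ratios were 1.67 (1.09 to 2.58) for DSS against control, 1.75 (1.27 to 2.44) for DSS with polydatin against DSS, and 2.93 (1.99 to 4.38) for DSS with polydatin against control. GBP1, with an ISRE core in its promoter, had 36, 44 and 61 counts. Only DSS with polydatin against control was called for it, at 1.76 (1.15 to 2.74). GBP1 and GBP2 therefore had similar levels in control, 36 and 49 counts, and different ratios in DSS, 1.20 (0.754 to 1.92) and 8.18 (6.07 to 11.2), with intervals that do not overlap.

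The IFITM genes, which block entry of viruses at membranes, gave no call. IFITM1 had 51, 44 and 50 counts, IFITM2 had 20, 13 and 22, and IFITM3 had 54, 48 and 56, each lowest in DSS. The models of IFITM1 and IFITM2 overlap over 32.5% and 22.7% of their exonic bases, so their reads may be shared. BST2 (tetherin) had 11, 2 and 6 counts and MX1, a GTPase that blocks viral replication, had 2, 5 and 12. Neither reached 1 CPM.

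Of 10 members around ISG15, ubiquitin ligases and PARPs, 9 were measured. ISG15, the ubiquitin-like modifier, had 45, 64 and 89 counts (2.48, 3.45 and 5.10 CPM). It was 2.06-fold (1.42 to 3.02) higher in DSS with polydatin than in control, and 1.39-fold (0.937 to 2.09) in DSS against control was not called. USP18, which removes ISG15 and damps receptor signalling, had 44, 27 and 36 counts. At 0.601 (0.358 to 0.993) in DSS against control it was the lone member called lower, and that call was lost with total-count scaling, thinning or removal of the GC and length trend.

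HERC6, of the HERC ligase family to which the ISG15 ligase HERC5 belongs, had 54, 65 and 102 counts. It was higher in DSS with polydatin by 1.67-fold (1.21 to 2.31) over DSS and 1.97-fold (1.40 to 2.79) over control. HERC5 had 21, 15 and 20 counts, without a call.

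The most abundant members of this role stayed within 1.5-fold. TRIM25, the ligase that acts on the RIG-I pathway, had 2228, 2395 and 2171 counts (123, 129 and 125 CPM), with ratios of 1.05 (0.994 to 1.12) for DSS against control and 0.963 (0.908 to 1.02) for DSS with polydatin against DSS. PARP14, an ADP-ribosyltransferase, had 1837, 2153 and 2569 counts (101, 116 and 147 CPM) and reached 1.46 (1.37 to 1.55) in DSS with polydatin against control, just short of the rule. DTX3L had 1479, 1413 and 1279 counts (81.4, 76.3 and 73.3 CPM), with DSS with polydatin at 0.901 (0.835 to 0.971) of control.

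DTX3L, a ubiquitin ligase, and its partner PARP9 are transcribed away from each other from starts 38 bases apart. PARP9 had 884, 769 and 799 counts, with ratios in DSS against control of 0.853 (0.773 to 0.94) for PARP9 and 0.936 (0.87 to 1.01) for DTX3L. Neither gene was called in any comparison. The search found an ISRE core in the PARP9 promoter, where it reaches across the DTX3L start, and none in the bases before the DTX3L start. The stretch around it is at chr3:122564320-122564353, shown on the minus strand, that of PARP9.
PARP9: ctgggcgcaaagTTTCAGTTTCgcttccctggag

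**Figure D2:**
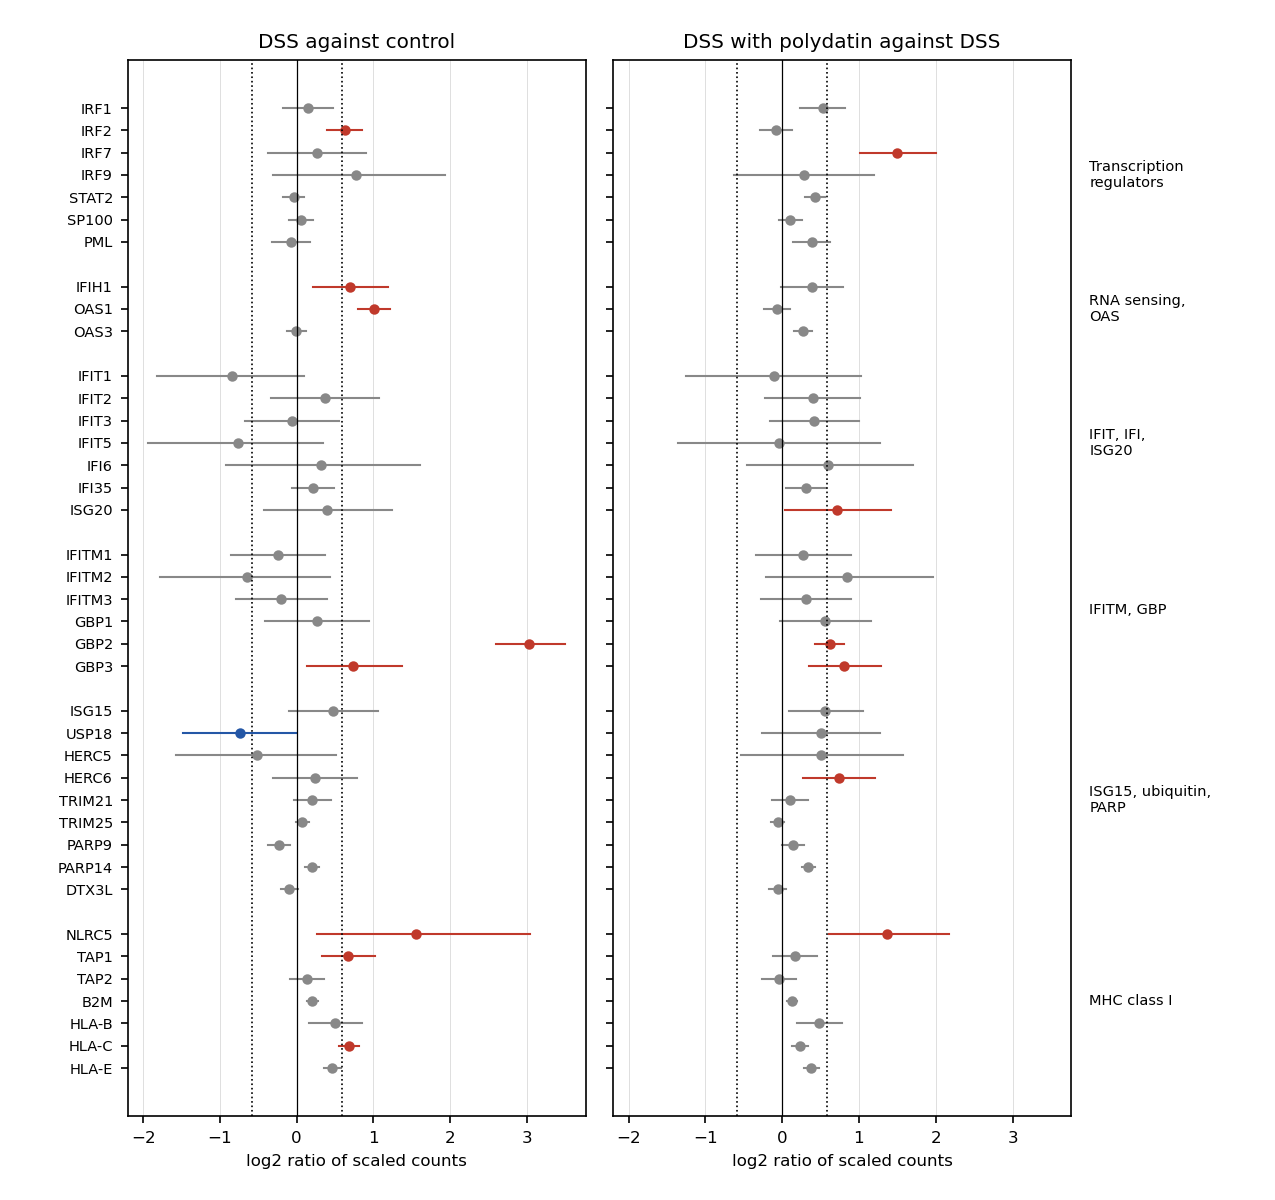
Log2 ratio of scaled counts of each measured member, with 95% counting intervals as lines, in DSS against control (left) and DSS with polydatin against DSS (right); red marks members called higher, blue lower and grey no call, and the dotted lines mark 1.5-fold. GBP2 lies farthest right in the left panel (8.18-fold) and IRF7 in the right panel (2.82-fold), and USP18 is the only blue point.

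Of 8 MHC class I members, 7 were measured. In DSS against control 3 of the 7 were higher (42.9%; 9.45% of all measured genes), and in DSS with polydatin against control 5 were (71.4%; 16% of all). The median log2 ratio of the 7 was 0.50 in DSS against control, 0.23 in DSS with polydatin against DSS and 0.84 in DSS with polydatin against control. The other 32 measured members had medians of 0.17, 0.38 and 0.45. No test of the difference between these sets was made. The higher calls of both comparisons include NLRC5, which counted as measured only through the treated libraries.

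NLRC5, the class I transactivator (chromosome 16, 56989485 to 57083531), had 7 counts in control, 21 with DSS and 51 in DSS with polydatin (0.385, 1.13 and 2.92 CPM). The order was control, DSS and DSS with polydatin, from low to high. The ratios were 2.94 (1.20 to 8.19) for DSS against control, 2.58 (1.52 to 4.52) for DSS with polydatin against DSS and 7.59 (3.43 to 19.8) for DSS with polydatin against control. The first rests on few counts and was lost with thinned libraries, at a log2 ratio of 1.26. NLRC5 counted as measured only through the treated libraries, in which it was called higher. Per kilobase it was the lowest of the measured class I members, at a mean of 0.12 CPM.

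HLA-B and HLA-C, classical heavy chains that present peptide, were higher in DSS with polydatin than in control. HLA-C had 800, 1312 and 1451 counts (44.1, 70.8 and 83.2 CPM), 1.61-fold (1.47 to 1.76) higher in DSS than in control and 1.89-fold (1.73 to 2.06) in DSS with polydatin. HLA-B was lower in level, with 120, 173 and 228 counts (6.61, 9.34 and 13.1 CPM), and was called in DSS with polydatin against control at 1.98 (1.58 to 2.49), where DSS against control was 1.41 (1.11 to 1.80). These genes are near-identical and differ between people and lines, so reads may be split or lost among them, and 18.9% of the exonic bases of HLA-B overlap other genes, among them HLA-C.

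HLA-E, a nonclassical chain that signals to natural killer cells, had 1134, 1598 and 1954 counts (62.5, 86.3 and 112 CPM). The order from low to high was again control, DSS and DSS with polydatin, with 1.38 (1.28 to 1.49; DSS against control), 1.30 (1.22 to 1.39; DSS with polydatin against DSS) and 1.79 (1.67 to 1.93; DSS with polydatin against control). HLA-F was not measured, with 3, 2 and 1 counts. B2M, the light chain shared by all of them, had 3101, 3648 and 3757 counts (171, 197 and 215 CPM). It was the most abundant member and had the ratios nearest to 1 of the measured chains, at 1.15 (1.10 to 1.21) in DSS and 1.26 (1.20 to 1.32) in DSS with polydatin, both against control. Per kilobase of exon, B2M (32.0 CPM), HLA-E (29.2) and HLA-C (26.3) were the highest members, and HLA-B (3.17) was far below them.

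TAP1 and TAP2 form the transporter that carries peptide into the endoplasmic reticulum. TAP1 had 118, 192 and 203 counts (6.50, 10.4 and 11.6 CPM), with 1.59 (1.26 to 2.02) in DSS against control and 1.79 (1.42 to 2.27) in DSS with polydatin against control. TAP2 had 323, 362 and 331 counts and was not called. With the GC and length trend removed, TAP1 and HLA-C no longer passed the rule between DSS and control, at log2 ratios of 0.56 and 0.49, which leaves NLRC5 of the class I members.

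TAPBP, which encodes tapasin, the chaperone that bridges TAP and the heavy chains, is in the processing list and not among the 49. It had 692 counts in control, 1854 with DSS and 2217 in DSS with polydatin (38.1, 100 and 127 CPM). Both treated libraries were well above control, by 2.63-fold (2.41 to 2.87) and 3.34-fold (3.06 to 3.64), and 1.27-fold (1.19 to 1.35) apart from each other. The ratio of TAPBP exceeded that of TAP1, HLA-B, HLA-C and B2M in both treated libraries. NLRC5 had larger ratios to control than TAPBP, 2.94 in DSS and 7.59 in DSS with polydatin, from far fewer counts.

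Of 16 class I processing genes, 14 were measured. In DSS against control 1 was higher (TAPBP, 7.14% beside 9.45% of all measured genes). Also 1 was lower (RFXAP, 7.14% beside 5.81% of all). In DSS with polydatin against control, 4 were higher (28.6% beside 16% of all), among them TAPBP, TAPBPL and ERAP2. RFXAP was the 1 lower (7.14% beside 12.4% of all). RFXAP, a subunit of the RFX complex that NLRC5 joins at class I promoters, had 454, 269 and 217 counts, 0.581 (0.498 to 0.677) and 0.498 (0.421 to 0.586) of control in the treated libraries. ERAP2, a peptidase that trims peptides, had 282, 291 and 412 counts and 1.52 (1.30 to 1.78) in DSS with polydatin against control. TAPBPL, a relative of tapasin, had 45, 55 and 77 counts and 1.78 (1.22 to 2.63) in DSS with polydatin against control. ERAP2 stood at the edge of the rule and lost this call with DESeq2 size factors. The most abundant genes of the list, the chaperones CANX and CALR, had 30466, 34301 and 31464 counts and 13771, 14849 and 13489 counts.

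The class I promoters differ in the motifs that the search found. TAP1, B2M and TAPBP hold both an ISRE core and an NF-kB match, while HLA-B and HLA-C hold an NF-kB match and not these ISRE letters. The search took exact matches only, so an element that differs from the core by a letter would be missed. The windows of B2M, TAPBP, HLA-B and HLA-C were chosen after their values were seen. They lie at chr6:32853742-32853863 on the minus strand (TAP1), chr15:44711348-44711426 on the plus strand (B2M), chr6:33314079-33314159 on the minus strand (TAPBP), chr6:31357321-31357381 on the minus strand (HLA-B) and chr6:31272230-31272289 on the minus strand (HLA-C). B2M and TAPBP carry the same pair of motifs and had different ratios in DSS against control, 1.15 (1.10 to 1.21) and 2.63 (2.41 to 2.87).
TAP1: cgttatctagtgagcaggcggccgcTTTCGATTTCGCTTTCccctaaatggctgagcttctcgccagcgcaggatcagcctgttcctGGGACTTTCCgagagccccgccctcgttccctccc
B2M: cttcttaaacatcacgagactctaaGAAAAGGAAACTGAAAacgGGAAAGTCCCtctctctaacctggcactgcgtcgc
TAPBP: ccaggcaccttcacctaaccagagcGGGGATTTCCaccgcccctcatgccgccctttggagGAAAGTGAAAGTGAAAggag
HLA-B: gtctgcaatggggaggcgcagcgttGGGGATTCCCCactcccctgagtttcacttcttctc
HLA-C: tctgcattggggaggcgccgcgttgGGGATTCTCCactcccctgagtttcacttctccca

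The start of TAP1 lies 488 bases from that of PSMB9, an immunoproteasome subunit transcribed the other way. PSMB9 had 4, 2 and 6 counts and was not measured, while TAP1 on the other side of the stretch had 118, 192 and 203.

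**Figure D3:**
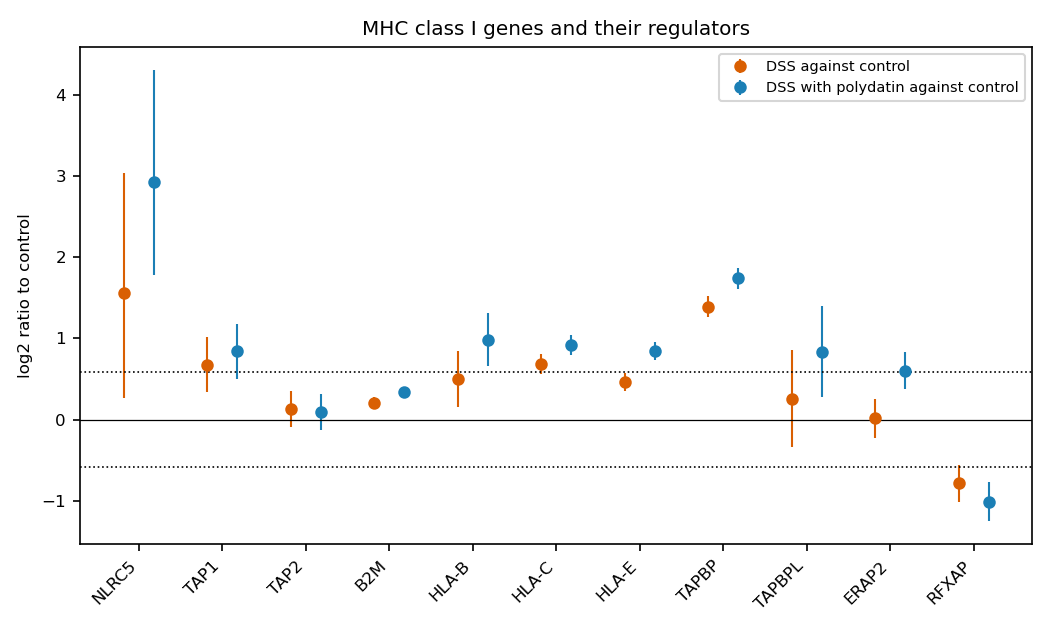
Log2 ratio to control, with 95% counting intervals, of the 7 measured class I members and of TAPBP, TAPBPL, ERAP2 and RFXAP of the processing list, in DSS and in DSS with polydatin; the dotted lines mark 1.5-fold. NLRC5 and TAPBP stand highest, TAP2 and B2M lie within 1.5-fold of control, and RFXAP is below control in both.

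The ligands and the signalling genes upstream come next. Of 8 interferon ligands listed, 6 had 0 counts in all libraries (IFNA1, IFNB1, IFNK, IFNG, IFNL2 and IFNL3), IFNE had 2, 1 and 4 counts and IFNL1 had 1, 0 and 0. Of 14 receptor, kinase and STAT genes, 13 were measured. IFNLR1, the receptor chain for interferon lambda in epithelia, had 197, 259 and 272 counts, and its 1.44 (1.19 to 1.74) in DSS with polydatin against control was not called. IFNGR1 was not called, with 3449, 3593 and 3621 counts.

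The calls in this list were for JAK2 and IRF8. JAK2, the kinase of the interferon gamma receptor, had 46, 32 and 52 counts and was 1.73-fold (1.09 to 2.77) higher in DSS with polydatin than in DSS. IRF8, a factor best known from myeloid cells, had 671, 294 and 263 counts, 0.429 (0.373 to 0.493) of control in DSS and 0.408 (0.353 to 0.471) in DSS with polydatin. Both treated libraries were thus below control for IRF8.

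Among 12 sensor and adaptor genes, 9 were measured. In DSS against control 2 were higher (22.2% beside 9.45% of all measured genes) and 0 lower (5.81% of all). RIGI, the RNA sensor that pairs with IFIH1, had 6, 37 and 38 counts, 6.04-fold (2.53 to 17.5) higher in DSS and 6.60-fold (2.77 to 19.1) in DSS with polydatin than in control. The control value rests on 6 counts (0.33 CPM). RIGI counted as measured only through the treated libraries, in which it was called higher. TICAM1, the adaptor of TLR3, had 88, 144 and 182 counts, with 1.60 (1.22 to 2.12) and 2.15 (1.66 to 2.81) against control. IKBKE, a kinase that activates IRF3, had 115, 111 and 168 counts and 1.61 (1.26 to 2.06) in DSS with polydatin against DSS. The abundant ADAR and MAVS had 8457, 7183 and 6088 counts and 5399, 5237 and 5162 counts, neither called.

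The feedback genes gave 0 higher calls among 7 measured. Over all measured genes 9.45% were higher in DSS against control and 16% in DSS with polydatin against control. CISH, a suppressor of cytokine signalling, had 28, 11 and 7 counts, 0.385 (0.173 to 0.798) of control in DSS and 0.26 (0.096 to 0.61) in DSS with polydatin. It counted as measured only through control, at 1.54 CPM. SOCS1, the main brake on interferon gamma signalling, had 7, 12 and 8 counts and was not measured. IRF2BP2, a partner of IRF2, was the most abundant of the list with 2271, 3366 and 2942 counts and 1.45 in DSS against control, short of the rule.

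A further list of 17 interferon-stimulated genes outside the 49 had 7 measured, and it was split. In DSS against control 1 was higher (SAMD9, 14.3% beside 9.45% of all measured genes). Lower were 2 (EPSTI1 and WARS1, 28.6% beside 5.81% of all). In DSS with polydatin against control 3 were higher (SAMD9, LGALS3BP and IFI16, 42.9% beside 16% of all). Lower were 2 (EPSTI1 and LAP3, 28.6% beside 12.4% of all). SAMD9, an antiviral factor, had 48, 95 and 100 counts, 1.94-fold (1.36 to 2.81) higher in DSS than in control. EPSTI1 had 165, 100 and 103 counts at 0.594 (0.459 to 0.766), and WARS1, the tryptophanyl-tRNA synthetase that interferon gamma induces, had 1354, 900 and 1133 at 0.651 (0.598 to 0.709). LAP3, an aminopeptidase, had 1341, 1000 and 685 counts, 0.532 (0.484 to 0.584) of control in DSS with polydatin. IFI16, a DNA sensor, had 9, 9 and 20 counts, and LGALS3BP had 718, 822 and 1064. IFI16 counted as measured only through DSS with polydatin, the library in which it was called higher, at 2.31 (1.01 to 5.77) against control.

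Across the 7 lists of related genes, 81 genes of which 53 were measured, 5 were higher (9.43%; 9.45% of all measured genes) and 5 lower (9.43%; 5.81% of all) in DSS against control, with a median log2 ratio of 0.06. The higher calls among the related genes were thus at the share of all genes. In DSS with polydatin against control 11 were higher (20.8%; 16% of all) and 5 lower (9.43%; 12.4% of all), with a median of 0.19. Among the called related genes, HLA-DPA1, IFI16 and CISH reached 1 CPM in only 1 library, and RIGI only in the treated libraries. The members stood at 8 higher and 1 lower, then 17 higher and 0 lower, with medians of 0.21 and 0.54. The members and the related genes were listed with results of these data known, so this is a description of the lists.

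**Figure D4:**
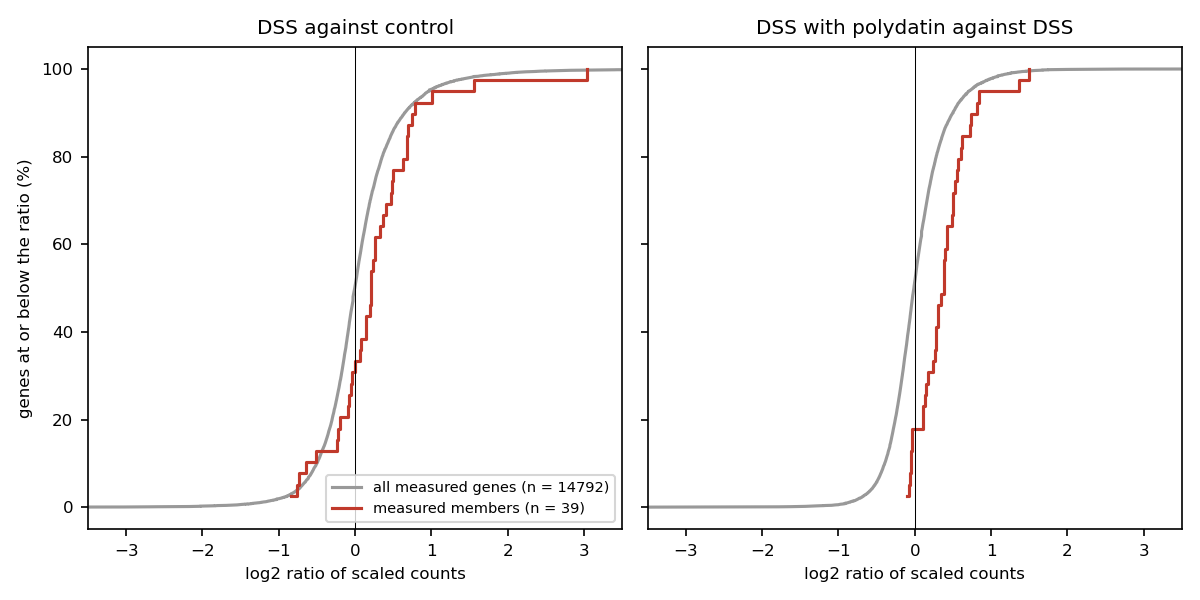
Cumulative percentage of genes against the log2 ratio of scaled counts, for the 39 measured members (red steps) and all 14792 measured genes (grey line), in DSS against control (left) and DSS with polydatin against DSS (right). The members' curve lies mostly to the right of that of all genes, with medians of 0.21 and 0.38 where all genes have -0.01 in both.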

How the data were processed

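The authors deposited 1 table of read counts, whole numbers that were not normalized, with a column for each library of total RNA and a row for each Ensembl gene. Alignment with HISAT2 to GRCh38 is given per the submitters' processing notes. How reads were assigned to genes, with which annotation and strand setting, is not given in the sources used here. Overlapping and antisense genes may therefore hold each other's reads. Of the 19 called members, 10 have exonic bases that overlap another gene in the gene models used here. Among them are IRF1 (22% of exonic bases), IFIT2 (10.3%) and TAP1 (9.49%), besides those given above. Cells given erastin or a ferroptosis inhibitor were not analysed here.

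Members were matched by symbol (60463 of 60664 identifiers had one), and gene models came from GENCODE 29 on GRCh38, which holds 58396. The members, lists and settings were chosen with earlier results of these data known. TMM factors from edgeR 4.0.16 (R 4.3.3) were 0.971 (control), 0.984 (DSS) and 1.05 (DSS with polydatin). Ratios and exact intervals used scipy 1.17.1 in Python 3.11.15, with 0.5 added where a library had 0. The script was tested on simulated counts. With 1 library per group there is no p-value. A CPM of 1 was 18.2, 18.5 and 17.4 counts.

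Named with values were the 19 members called in any comparison, the 6 of highest mean CPM, the called related genes, IFNLR1 and SOCS1, and the 2 most abundant genes of each list. Some genes that this rule covers are not reported here. Members under 20 counts in every library numbered 10. Other members named were chosen after their values were seen. Other settings tried were size factors from DESeq2 1.42.0, scaling by total counts, filters at 10 CPM or none, equal library totals by thinning, 2 added counts, a 2-fold rule and the mean of members. A CPM of at least 1 on average and a GC and length trend (statsmodels 0.14.6) were added after seeing the data. Figures used matplotlib 3.10.9.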

Additional observations from a re-analysis of the deposited data

How the results depend on the processing

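No paired analysis was possible because each group has 1 library, and no library could be left out. No called result changed direction under any alternative, but the uncalled ratio of TRIM25 in DSS with polydatin against DSS (log2 0.03) crossed to above 0 with total-count scaling. Total-count scaling moved the median of all genes by 0.11 (log2) in DSS with polydatin against control, left 0 members lower in DSS than in control, and gave a member median of 0.65 in DSS with polydatin against control. With no filter, 47 members entered, 2 were lower in DSS than in control (USP18 and BST2), and that median was 0.38. At a CPM of at least 10, 20 members remained, with 5 higher and 0 lower in DSS against control, 1 higher in DSS with polydatin against DSS with a median of 0.20, and 7 higher in DSS with polydatin against control. With libraries thinned to equal totals, 0 members were lower in DSS than in control and 1 (IFIT1) was lower in DSS with polydatin than in control. A 2-fold rule gave 3 higher and 0 lower in DSS against control (4.24% of all genes higher), 2 higher in DSS with polydatin against DSS (1.94%) and 8 higher in DSS with polydatin against control (8.53%). With the GC and length trend removed, an alternative chosen after seeing the data, 0 members were lower in DSS than in control. Fewer genes enter by construction at the stricter filter, and the cause of the other moves was not tested. The other 65 values for the whole set kept within 1.5 times the count or 0.1 (log2) of the median. Depth limits 10 members with under 20 counts in every library and 7 with under 20 in 1 or 2 libraries.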

Other observations

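The class II list, which interferon gamma also drives through CIITA, held 6 genes of which 3 were measured. HLA-DPA1, a class II alpha chain, had 5, 16 and 18 counts in control, DSS and DSS with polydatin, 3.14-fold (1.10 to 10.9) and 3.75-fold (1.34 to 12.9) above control. It was under 20 counts in every library and counted as measured only through DSS with polydatin, at 1.03 CPM, so these ratios lie near the floor. CD74, the invariant chain that escorts class II molecules, was the most abundant with 1985, 2813 and 2546 counts and a ratio of 1.39 (1.31 to 1.47) in DSS against control, which was not called. HLA-DMA, the peptide exchanger, had 14, 23 and 26 counts.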
